A study of Rattus norvegicus with 6 samples.

Results

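Platelet and megakaryocyte genes were followed in rat skulls, in defects cut into the bone of the calvaria, the skull roof. They were the rows of the deposited gene table named Gp1ba, Gp1bb, Gp5, Gp6, Gp9, Itga2b, Pf4, Ppbp and Clec1b, 9 of 34045 rows. Wild-type male Sprague-Dawley rats, of an outbred laboratory stock, carried either the CGG hydrogel (3 libraries) or the CGG-Cit hydrogel (3 libraries) in the defect, and tissue was taken 4 weeks after the operation. The labels spell out neither gel name, and no defect without a gel was analysed here. It is not stated that each library is a different animal, so a p-value here reflects library-to-library spread, part or all of which may be technical. The comparison of the 2 gels asks how platelet genes in the defect tissue differed between them.

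Megakaryocytes are large cells of the bone marrow that shed platelets, small cell fragments without a nucleus that carry over RNA from their parent cell. Platelets stick to damaged vessels through the glycoprotein Ib-IX-V complex, which binds von Willebrand factor, and through glycoprotein VI, which binds collagen. They are joined to one another by the integrin made of the Itga2b and Itgb3 chains, which binds fibrinogen, and they release chemokines such as Pf4 and Ppbp from their alpha granules. The skull bones hold marrow of their own, and total RNA from a minced defect contains RNA of blood, marrow, bone and soft tissue together. In such bulk RNA, fewer cells of a type and less RNA per cell cannot be told apart.

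Of the 9 members 8 were detected in every library, and all 8 lay lower in each CGG-Cit library than in each CGG library. 7 of them reached the mean of 0.5 FPKM (fragments per kilobase of gene, with the authors' scaling of each library) needed for testing. Of these 6 fell in CGG-Cit: Gp1ba, Gp9, Gp6, Clec1b, Itga2b and Ppbp, each to between 30.7% and 40.1% of its CGG mean. Pf4 did not pass, Gp5 was too low to be tested and Gp1bb was listed at 0 everywhere. The test was limma on log2(FPKM + 1), with Benjamini-Hochberg adjustment over the 15965 genes tested and a threshold of 0.05 on adjusted p. By the same rule 9.78% of all genes tested were lower in CGG-Cit and 7.75% higher (9.96% lower with voom, limma's fit for fragment counts, which also called the 6 members), and in 22.1% of them every CGG-Cit library lay below every CGG library. The median log2 fold change, CGG-Cit minus CGG, was -1.36 over the 7 tested members and 0.002 over all genes tested. Each of the 7 averaged at least 0.5 FPKM in both groups, so none was tested through its CGG level alone.

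Depth was even, with 14744207 to 16224920 fragments per library recovered from the table. Each fragment was worth 0.0596 to 0.0657 FPKM where a gene was 1 kb long. That worth implies a library size of 15631490 in CGG 2 and 15223734 in CGG 3, below the 16224920 and 15283405 fragments recovered there. The deposited values were therefore not scaled by the recovered depth alone. The main collagen gene of bone, Col1a1, which is not restricted to bone, had means of 7111 ± 1618 (CGG) and 4515 ± 985.5 FPKM (CGG-Cit; SD, n = 3). The split of all calls depended on scaling: 1561 genes were lower and 1237 higher as deposited, against 948 lower (5.94%) and 2203 higher after rescaling to TPM (values set to the same total in every library), which moved the median of all genes to 0.16. Of the CGG-Cit libraries, CGG-Cit 3 lay nearest to CGG in the 8 detected members.

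**Figure D1:**
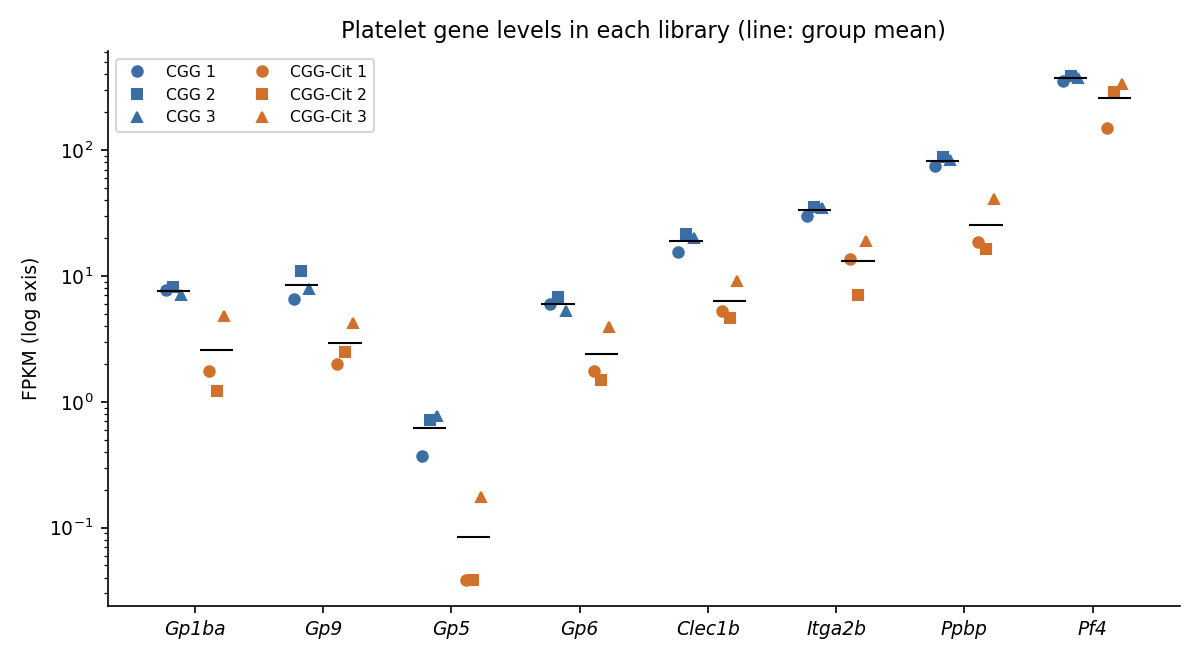
FPKM of the 8 detected members in each library on a log axis, with CGG in blue, CGG-Cit in orange, 1 marker shape per replicate number and a line at each group mean; Gp1bb, listed at 0, is not drawn. In every gene the 3 CGG-Cit points lie below the 3 CGG points, and CGG-Cit 3 is the highest of the CGG-Cit points.

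The promoter windows of members that fell together are shown for the 4, among those that passed, in which the letters GATAA lie nearest to the annotated start. RefSeq promoter windows (build GRCr8, 250 bases before to 50 after each annotated start) matched 8 members by symbol, all but Pf4. Factors of the GATA family and of the ETS family are known to drive megakaryocyte genes, the former binding a GATA core and the latter a GGAA core. The letters GATAA and GGAAG were searched on both strands, where their reverse complements read TTATC and CTTCC, and every match is in capitals in the 5′ to 3′ direction of the gene.
Gp1ba (chr10:55851309-55851608, plus strand): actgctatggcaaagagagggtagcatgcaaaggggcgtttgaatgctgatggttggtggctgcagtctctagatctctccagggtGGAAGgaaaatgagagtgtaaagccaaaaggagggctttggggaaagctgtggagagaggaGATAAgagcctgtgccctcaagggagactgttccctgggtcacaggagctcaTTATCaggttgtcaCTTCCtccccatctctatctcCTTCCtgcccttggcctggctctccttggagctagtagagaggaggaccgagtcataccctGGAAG
Gp9 (chr4:121792592-121792891, plus strand): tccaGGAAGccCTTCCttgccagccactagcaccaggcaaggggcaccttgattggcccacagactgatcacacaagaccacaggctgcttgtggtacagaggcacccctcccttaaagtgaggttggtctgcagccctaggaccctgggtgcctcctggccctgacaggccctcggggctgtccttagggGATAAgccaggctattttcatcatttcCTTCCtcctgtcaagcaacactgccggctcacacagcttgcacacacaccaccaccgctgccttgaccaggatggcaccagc
Itga2b (chr10:87925784-87926083, minus strand): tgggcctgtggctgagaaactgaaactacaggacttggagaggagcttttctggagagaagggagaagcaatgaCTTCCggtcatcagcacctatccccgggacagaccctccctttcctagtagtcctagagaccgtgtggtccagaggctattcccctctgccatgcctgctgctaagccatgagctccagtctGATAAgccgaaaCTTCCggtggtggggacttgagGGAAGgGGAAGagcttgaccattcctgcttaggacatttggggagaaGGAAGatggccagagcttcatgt
Clec1b (chr4:164533859-164534158, plus strand): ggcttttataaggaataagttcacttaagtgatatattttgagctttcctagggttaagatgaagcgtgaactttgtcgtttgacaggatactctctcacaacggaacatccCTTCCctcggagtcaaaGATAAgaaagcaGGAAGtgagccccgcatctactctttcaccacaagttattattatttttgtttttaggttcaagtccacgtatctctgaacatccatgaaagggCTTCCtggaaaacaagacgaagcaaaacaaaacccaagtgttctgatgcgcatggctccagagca
GATAA stood 103 and 51 bases upstream of the start in Gp1ba (the nearer on the opposite strand), 59 in Gp9, 54 in Itga2b and 121 in Clec1b. Among the windows not shown, Gp6 had it at 185 and Gp5 at 90 and 74 bases upstream, while Gp1bb and Ppbp had none. GATAA was thus present in 6 of the 8 member windows and in 26.5% of all 33469 windows. GGAAG was present in all 8 and in 70.1% of all windows, and both together in 6 of 8 and in 17.7%. GATAA and its nearest GGAAG match begin 121 and 109 bases upstream in Clec1b and 54 and 42 in Itga2b (GGAAG there on the opposite strand). In Gp6 they begin at 185 and 191, the closest pair among the members. A match is a description of letters in this window and not a binding site, and no match says nothing about a factor.

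The glycoprotein Ib-IX-V complex was followed through 4 genes. Gp1ba encodes its large chain, which holds the binding site for von Willebrand factor (ENSRNOG00000025959, listed at chromosome 10, 57260680 to 57263546, plus strand). It measured 7.80, 8.10 and 7.09 FPKM in CGG libraries 1, 2 and 3, against 1.76, 1.21 and 4.83 in CGG-Cit libraries 1, 2 and 3. The CGG libraries were close together, while CGG-Cit 3 stood well above the other CGG-Cit libraries without reaching CGG. Gp1ba fell by 1.40 ± 0.345 (SE) on the log2(FPKM + 1) scale (adjusted p = 0.0383), a scale that understates the change of low genes. Its means were 7.66 ± 0.518 and 2.6 ± 1.95 FPKM (SD, n = 3), 2.95-fold lower.

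Gp9 encodes the small chain glycoprotein IX, which the complex needs to reach the platelet surface (ENSRNOG00000010015, chromosome 4, 119680112 to 119682547, plus strand). Its levels were 6.53, 10.99 and 7.87 FPKM in the CGG libraries and 2, 2.48 and 4.25 in the CGG-Cit libraries. The highest CGG-Cit value stayed below the lowest CGG value. Gp9 fell by 1.29 ± 0.26 (SE; adjusted p = 0.0244), and its CGG-Cit mean was 34.4% of the CGG mean. Gp1ba and Gp9 stood at similar levels per length: the ratio of Gp1ba to Gp9 ran from 0.737 to 1.19 in CGG and from 0.487 to 1.14 in CGG-Cit, and these ranges overlapped.

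Gp5 encodes glycoprotein V, a subunit that thrombin can cleave (ENSRNOG00000061705, chromosome 11, 73015387 to 73017090, plus strand). It was the lowest of the detected members, at 0.368, 0.713 and 0.771 FPKM in CGG and 0.0384, 0.0380 and 0.175 in CGG-Cit. These values rest on 10, 19 and 20 fragments in CGG and on 1, 1 and 5 in CGG-Cit. Both low libraries lay under the floor of 3 fragments, 0.115 FPKM in CGG-Cit 1 and 0.114 in CGG-Cit 2, below which a level cannot be read. When genes of any level were tested, Gp5 passed with limma at a log2 fold change of -0.57 (adjusted p = 0.0447), in a fit that called 5.1% of 22222 genes lower.

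Gp1bb encodes the beta chain that is linked to the Gp1ba product. The table lists it at 0 in all 6 libraries (ENSRNOG00000046981, chromosome 11, 86520992 to 86522169, plus strand). Of its 1178 listed bases 1177 lie inside the row of the septin gene next to it, on the same strand (ENSRNOG00000029912, chromosome 11, 86512797 to 86522168). How fragments that fall in both genes were counted is not given in the sources used here, so the value of 0 is no measure of Gp1bb RNA. The table names the septin row 5-Sep, in the manner of a date, and describes it as septin 5, a filament protein also found in platelets. The 5-Sep row measured 21.0, 24.5 and 23.9 FPKM in CGG and 9.52, 9.71 and 15.8 in CGG-Cit. The groups did not overlap, and 5-Sep fell by 0.96 on the log2 scale (adjusted p = 0.0244 with limma). Whether RNA of Gp1bb is part of the 5-Sep value is not known.

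Gp6 and Clec1b encode the other activating receptors among the members. Gp6, the collagen receptor, signals through the chain encoded by Fcer1g (Gp6: ENSRNOG00000047204, chromosome 1, 73040901 to 73064641, plus strand). Gp6 was at 6.01, 6.76 and 5.24 FPKM in CGG and at 1.77, 1.5 and 3.96 in CGG-Cit. It fell by 1.10 ± 0.27 (SE; adjusted p = 0.0375), to 40.1% of its CGG mean. Fcer1g, which many myeloid cells also express, had the higher mean in CGG-Cit, 641 ± 176 FPKM against 411 ± 53.3 in CGG (SD, n = 3), and did not pass (adjusted p = 0.0985 with limma).

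Clec1b encodes CLEC-2, the platelet receptor for podoplanin (ENSRNOG00000057335, chromosome 4, 163162211 to 163170466, plus strand). The values were 15.6, 21.6 and 20.1 FPKM in CGG and 5.26, 4.67 and 9.08 in CGG-Cit. Every CGG library stood above every CGG-Cit library, and among the members Clec1b had the smallest adjusted p. Clec1b fell by 1.49 ± 0.239 (SE; adjusted p = 0.0157), to 33.2% of its CGG mean. Its ligand gene Pdpn, which stromal cells, osteocytes and lymphatic vessels express, had means of 18.2 ± 4.39 (CGG) and 20.8 ± 3.32 FPKM (CGG-Cit; SD, n = 3; adjusted p = 0.515 with limma), with overlapping groups.

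Itga2b encodes the integrin alpha chain that makes up the fibrinogen receptor and marks the megakaryocyte lineage from early on (ENSRNOG00000022071, chromosome 10, 90398132 to 90415070, minus strand). It was at 30.1, 35.0 and 35.0 FPKM in CGG and at 13.7, 7.06 and 19.0 in CGG-Cit. Here too the groups were apart, with CGG-Cit 2 lowest. Itga2b fell by 1.36 ± 0.312 (SE; adjusted p = 0.0315), to 39.7% of its CGG mean. Its partner Itgb3, which osteoclasts and endothelium also use in another integrin, had means of 55.8 ± 11 (CGG) and 31.4 ± 9.48 FPKM (CGG-Cit; SD, n = 3). Itgb3 stood at -0.83 without passing (adjusted p = 0.0522 with limma). It passed in 4 of the 17 alternative fits, among them the one with a stricter filter (0.0475) and voom (0.0421), and reached 0.153 at most.

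The 2 platelet chemokine genes lie next to each other on the minus strand of chromosome 14, 2695 bases apart in the table. Ppbp encodes the precursor of chemokines that act on the neutrophil receptor Cxcr2 (ENSRNOG00000002829, chromosome 14, 18851954 to 18853315). Ppbp was at 75.4, 89.0 and 83.8 FPKM in CGG and at 18.8, 16.3 and 41.2 in CGG-Cit. It fell by 1.78 ± 0.323 (SE; adjusted p = 0.0197), to 30.7% of its CGG mean, the largest fitted change among the tested members. Cxcr2 fell by 1.85 (adjusted p = 0.0188), from 57.6 ± 8.14 to 16.5 ± 8.5 FPKM (SD, n = 3).

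Pf4 encodes platelet factor 4, a chemokine that binds heparin (ENSRNOG00000028015, chromosome 14, 18848549 to 18849258). Per length it was the most abundant member, at 357, 389 and 374 FPKM in CGG and 149, 290 and 338 in CGG-Cit, although its listed length of 318 bases is the shortest of the 9. The groups did not overlap, but CGG-Cit 3 reached 90.5% of the CGG mean and CGG-Cit 1 lay at 39.9%. Pf4 stood at -0.61 ± 0.292 (SE) and did not pass (adjusted p = 0.189 with limma), nor did it in any of the 17 alternative fits (adjusted p 0.0886 to 0.331).

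Pf4 and Ppbp stood in another proportion to each other in the CGG-Cit libraries than in the CGG libraries. The ratio of Pf4 to Ppbp was 4.74, 4.37 and 4.46 in CGG 1, 2 and 3. In CGG-Cit 1, 2 and 3 it was 7.93, 17.8 and 8.2. The ratio was steady within CGG and higher in every CGG-Cit library, most of all in CGG-Cit 2. This pair was singled out after its values were seen, so the ratio is given without a test. On the log2 scale and relative to the mean of the other 6 tested members, Pf4 averaged 1.02 higher in CGG-Cit than in CGG and Ppbp stood at -0.40, with no overlap between groups, whereas the groups overlapped for the remaining 5. Gp1ba, among these 5, averaged -0.39. The reference for Ppbp includes Pf4, whose smaller change lowers the value of Ppbp. Pf4 is also transcribed by some macrophages. The summed level of the 10 macrophage genes followed here was 896.8 to 1045 FPKM in CGG and 1637 to 2388 in CGG-Cit, and its part in the Pf4 values was not tested.

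**Figure D2:**
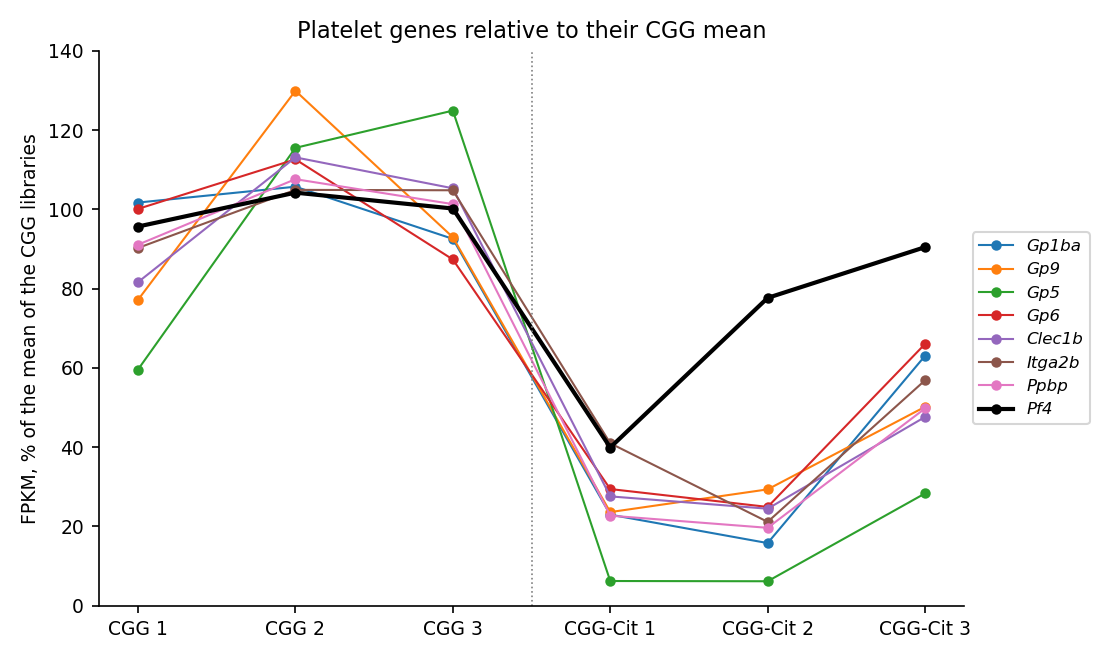
Level of each detected member in each library as a percentage of its mean over the 3 CGG libraries; the lines only join the points of 1 gene, and libraries have no order within a group. In CGG-Cit 2 Pf4 stands at 77.7% while the other 6 tested members lie between 15.8% and 29.3%.

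On this percentage scale the 6 tested members other than Pf4 stayed close together. Their median was 25.6% of the CGG mean in CGG-Cit 1 (range 22.7% to 41%). It was 22.8% in CGG-Cit 2 (15.8% to 29.3%) and 53.5% in CGG-Cit 3 (47.6% to 66%). CGG-Cit 2 was the lowest CGG-Cit library for 6 of the 8 detected members, Gp9 and Pf4 being the exceptions, where CGG-Cit 1 was lowest; for Gp5 the 2 libraries had 1 fragment each. Within CGG, CGG 2 was the highest library for 7 of the 8, Gp5 being the exception and CGG 3 nearly equal in Itga2b.

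The calls depended on single libraries. With CGG 2 left out, 0 of the 6 members passed with limma (adjusted p 0.0514 to 0.103, unadjusted p under 0.05 for 6), where 3.12% of all genes were lower. Leaving out CGG 3 also gave 0 (0.0646 to 0.106, unadjusted p under 0.05 for 6), where 1.19% of all genes were lower. Clec1b alone passed when CGG-Cit 1 was dropped (3.06% of all genes lower), and Itga2b alone when CGG-Cit 2 was (1.56%). Gp9, Ppbp and Clec1b passed when CGG 1 was dropped (4.17%). All 6 passed, at 0.000845 to 0.0121, once CGG-Cit 3 was dropped (10.2%). A block on the replicate number, which the labels do not tie to animals, kept Gp9, Ppbp and Clec1b (6.61% of all genes lower).

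Other genes of platelets and megakaryocytes, in 4 lists, varied more widely in their change than the members. Of 64 tested genes 22 fell and 3 rose in CGG-Cit, against 9.78% and 7.75% of all genes tested, with a median log2 fold change of -0.32. Among 19 other surface receptors 7 fell and 0 rose with limma (voom called 10 and 0, and unadjusted p fell under 0.05 for 10 lower and 2 higher genes). Treml1, a receptor stored in alpha granules, was at 16.5, 23.0 and 18.3 FPKM in CGG, against 4.88, 3.65 and 10.6 in CGG-Cit. Treml1 fell by 1.56 ± 0.334 (SE; adjusted p = 0.0271), with the groups apart. The megakaryocyte inhibitory receptor gene Mpig6b fell by 1.27, the thrombin receptor genes F2rl2 and F2rl3 by 1.19 and 0.95, the thromboxane receptor gene Tbxa2r by 1 and the serotonin transporter gene Slc6a4 by 0.84. The ATP receptor gene P2rx1 stood at -1.10 without passing (adjusted p = 0.0613). Selp, which endothelium shares with platelets, averaged 9.48 ± 1.5 and 7.39 ± 1.03 FPKM (SD, n = 3; adjusted p = 0.181 with limma), with overlapping groups.

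Of 14 granule genes 5 fell and 2 rose. Srgn, the proteoglycan that holds granule cargo in many blood cells, fell by 1.63, Mmrn1, the carrier protein of factor V in alpha granules, by 1.14, the factor V gene F5 by 1.13, the dense granule gene Slc35d3 by 0.95 and Nbeal2, needed to form alpha granules, by 0.78. Slc35d3 was tested through its CGG level alone: its CGG mean was 1.54 FPKM, while its CGG-Cit mean of 0.326 lay under the filter of 0.5. It stood at only 0.0745 FPKM in CGG-Cit 2, so the size of its fall is uncertain. Mmrn1 went from 10.04 ± 0.694 to 4.15 ± 1.43 FPKM (SD, n = 3; adjusted p = 0.0199 with limma). Among those that rose was Clu (0.80), which encodes a secreted protein that tissue cells also make. Vwf, made by endothelium as well as megakaryocytes, was level at 17.7 ± 3.1 and 18.2 ± 3.49 FPKM (SD, n = 3), a log2 difference of 0.04 ± 0.181 (SE; adjusted p = 0.905 with limma).

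Of 19 genes of the cytoskeleton and of signalling 5 fell and 1 rose. Tubb1, the beta tubulin of the platelet rim, fell by 1.44 ± 0.389 (SE; adjusted p = 0.0486), from 16.4 ± 2.95 to 6.04 ± 3.72 FPKM (SD, n = 3), though it passed in 5 of 17 alternative fits only, as did Mpig6b. Rasgrp2, the exchange factor that switches platelet integrins on, fell by 1.29, the platelet lipoxygenase gene Alox12 by 1.06, the protein kinase C gene Prkcq by 0.87 and the phospholipase gene Plcg2 by 0.50. Tbxas1, the thromboxane synthase gene that macrophages also express, rose by 0.90. Of 12 transcription factor genes 5 fell and 0 rose with limma (voom called 5 and 0, and unadjusted p was under 0.05 for 6 and 0). Nfe2, required for platelet release, fell by 1.52, Tal1 by 1.23, Gfi1b by 1.21, Lyl1 by 0.75 and Zfpm1, a partner of Gata1, by 0.52. These factors also act in red cell precursors. Gata1 was low and uneven, at 0.44, 2.44 and 0.67 FPKM in CGG and 0.28, 0.21 and 0.32 in CGG-Cit, and did not pass (adjusted p = 0.207). Runx1 and Fli1 stood at 0.01 and -0.24.

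The calls in these 4 lists rested on the libraries as those of the members did. The 22 lower genes became 2 when CGG 1 or CGG-Cit 1 was dropped and 26 when CGG-Cit 3 was. They became 0 with limma when CGG 2, CGG 3 or CGG-Cit 2 was dropped. In those fits 28, 28 and 26 of the 64 tested genes were lower at an unadjusted p under 0.05, beside 31 with no library dropped. After rescaling to TPM 14 were called.

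**Figure D3:**
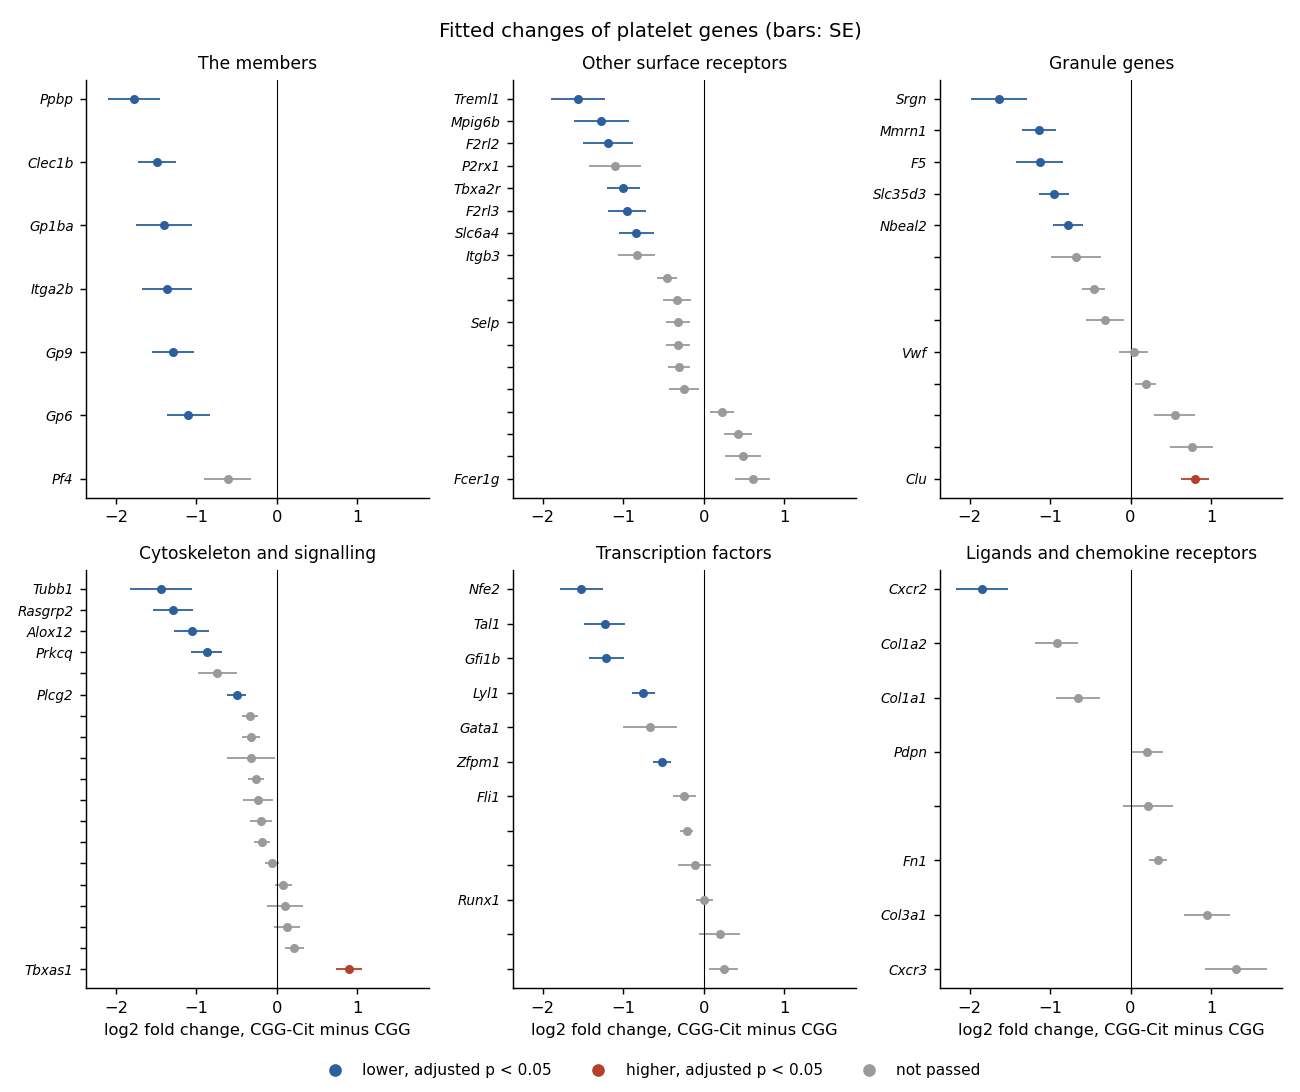
Fitted log2 fold change (CGG-Cit minus CGG, on log2(FPKM + 1)) with its SE for the tested genes reported here from the members, the 4 other platelet lists and the ligand list, with names only for genes named in the text; blue genes passed as lower, red ones as higher and grey ones did not pass. The 6 members that passed lie between -1.78 and -1.10, while the other lists run from negative values to above 0.

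Among 8 tested genes of ligands and of chemokine receptors 1 fell, Cxcr2, and 0 rose with limma (voom called 2 and 0, and unadjusted p was under 0.05 for 3 lower and 3 higher; median 0.21). With CGG 2, CGG 3, CGG-Cit 1 or CGG-Cit 2 dropped, Cxcr2 no longer passed, and 2 genes of the list were still lower at an unadjusted p under 0.05. The collagen genes Col1a1 and Col1a2, whose proteins Gp6 binds, stood at -0.65 and -0.92 and Col3a1 at 0.95. The fibronectin gene Fn1 stood at 0.34, and none of these passed in the reported fit. Cxcr3, a receptor on T cells that some forms of Pf4 act on, stood at 1.31 (adjusted p = 0.0604 with limma). The calls of this list depended on scaling. After rescaling to TPM 1 gene was lower and 3 were higher, Col3a1, Fn1 and Cxcr3, where 13.8% of all genes were higher. Under quantile scaling, or with CGG 2 or CGG-Cit 3 dropped, 1 gene was higher. The liver-made ligands had almost no fragments: Thpo was at 0 in 5 libraries, and the fibrinogen chain gene Fgg was listed at 0 in all 6.

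Genes of other marrow cells moved with the members. All 11 tested neutrophil genes fell, beside 9.78% of all genes tested. Their summed level was 15064 to 17034 FPKM in CGG and 2400 to 6272 in CGG-Cit. All 11 tested erythroid genes fell as well, with a sum of 1264 to 1573 FPKM in CGG and of 397.7 to 749.2 in CGG-Cit. S100a8, a calprotectin chain of neutrophils, fell by 2.16 and the granulocyte factor gene Cebpe by 1.46, and the red cell genes Tspo2 and Hbb-b1, a beta globin, by 1.78 and 1.66. Median log2 fold changes were -1.94 for the neutrophil list and -1.38 for the erythroid list, beside -1.36 for the tested members. In both lists, as in the members, the mean centred level was lowest in CGG-Cit 2 and, within that gel, highest in CGG-Cit 3. The skeletal muscle list (-3.17, -4.31 and -1.36 in CGG-Cit 1, 2 and 3), the progenitor list and the 4 other platelet lists had the same order. Skeletal muscle genes, with 9 of 9 lower, summed to 6606 to 8185 FPKM in CGG and 36.3 to 336 in CGG-Cit, the troponin genes Tnnt3 and Tnni2 falling by 5.24 and 5.89. Of 8 osteoblast genes 5 fell, among them the mineralisation genes Phospho1 (-0.91) and Alpl (-0.97), and the list summed to 10411 to 14923 and 5050 to 9459 FPKM. Of 10 macrophage genes 8 rose, beside 7.75% of all genes tested, with the scavenger receptor gene Msr1 at 1.46 and the lysosomal protease gene Lgmn at 1.62. Cd163, another gene of that list, stood at -0.49 without passing (adjusted p = 0.223 with limma). These calls, too, depended on single libraries. Without CGG 3, 0 neutrophil, 1 erythroid, 5 muscle and 1 osteoblast genes were lower and 1 macrophage gene higher with limma, although unadjusted p stayed under 0.05 for 11, 11, 9, 5 and 9 of them. Without CGG 2 the same counts were 1, 4, 8, 1 and 3, and without CGG-Cit 2 they were 3, 4, 8, 1 and 1. Without CGG-Cit 1 they were 2, 4, 8, 5 and 2, without CGG 1 they were 6, 5, 9, 1 and 8, and without CGG-Cit 3 they were 11, 11, 9, 5 and 7. In the fit without CGG-Cit 3, 1 macrophage gene, Cd163, was called lower. The shares of all genes called moved too. Lower and higher genes were 1.19% and 0.764% without CGG 3, 3.12% and 2.63% without CGG 2, and 1.56% and 0.933% without CGG-Cit 2. They were 3.06% and 3.23% without CGG-Cit 1, 4.17% and 3.36% without CGG 1, and 10.2% and 8.22% without CGG-Cit 3. The part of these cell types in the platelet values was not tested.

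Blood stem and progenitor genes and endothelial genes were less uniform. Of 7 tested progenitor genes Myb fell by 1.5 and Gata2 by 0.80, while the other 5 did not pass. The list ran from -1.50 to 0.84 on the log2 scale, with a median of 0.32, so it did not lean lower as a whole. Only the fit without CGG-Cit 3, of the 6 that each leave out a library, kept 2 lower progenitor genes, and the other fits had 0 (unadjusted p under 0.05 for 2 or 3). The summed level overlapped between groups (124.1 to 135.6 and 109.2 to 138.5 FPKM). Of 7 tested endothelial genes 0 passed with limma (voom called 0, and unadjusted p was under 0.05 for 0 lower and 1 higher), and their summed level of 124.3 to 217.7 FPKM in CGG overlapped with 164.6 to 229.1 in CGG-Cit. The receptor genes Kdr (0.57, adjusted p = 0.0869) and Tie1 (0.44, 0.199) had the smallest p of that list. Cldn5, another endothelial gene, was listed at 0 throughout.

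**Figure D4:**
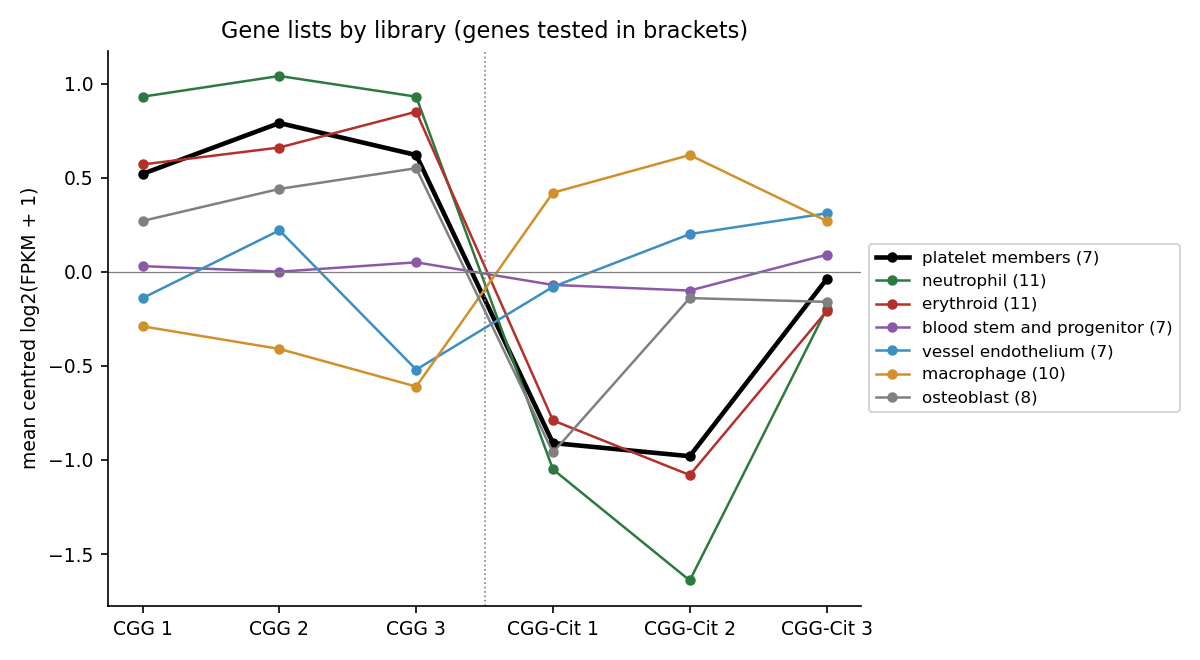
Mean over the tested genes of each list of log2(FPKM + 1) centred on the 6 libraries, by library; the lines only join the points of 1 list. The member line (black) runs from 0.52 to 0.79 in CGG and from -0.98 to -0.04 in CGG-Cit. The neutrophil, erythroid, progenitor and endothelial lines are, like it, highest in CGG-Cit 3 among the CGG-Cit libraries, and the macrophage line is above 0 in each of them. The skeletal muscle list, also highest in CGG-Cit 3 among them, is not drawn.

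The named protein-coding genes whose pattern over the 6 libraries was most like the mean of the 7 tested members were ranked by Euclidean distance between centred log2(FPKM + 1) values, among 13900 candidates. The nearest 7 were Bpgm, Tspan2, Rasgrp2, Cd52, Tspan33, Hba-a2 and Hba-a1, at distances of 0.149 to 0.264. Of these, Rasgrp2 belongs to the platelet lists. Bpgm, the red cell enzyme that makes bisphosphoglycerate, was at 107.6, 117.1 and 115.7 FPKM in CGG and 35.8, 34.1 and 69.5 in CGG-Cit, the nearest of all. Hba-a1 and Hba-a2 are near-identical alpha globin genes whose counts cannot be kept apart with certainty. Among the members Gp6 lay closest to their own mean (0.304) and Pf4 farthest (1.126, rank 1201 among the candidates). All 7 genes fell in CGG-Cit, at log2 fold changes of -1.45 to -1.20. They were chosen for that pattern, so this is a description.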

How the data were processed

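Total RNA of minced defect tissue, 3 libraries per gel, was sequenced as paired ends with Illumina chemistry, per the labels' protocols and the series' design text. The authors deposited 1 table of FPKM per gene and library, with gene lengths and coordinates. Named without a role in the submitters' processing notes are the build mRatBN7.2, DESeq2 1.20.0, the read counter featureCounts 1.5.0-p3 and the aligner HISAT2 2.0.5. The strand setting is not given in the sources used here. Coordinates are printed as the table lists them: its last gene on chromosome 1 ends at 282724300, and no build could be tied to them.

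FPKM times gene length gave whole fragments (within 0.01) for 100% of values above 0 in every library. The authors' scaling was kept. The 15965 genes averaging 0.5 FPKM or more over the libraries were tested on log2(FPKM + 1) with limma 3.58.1 (eBayes with a mean-variance trend, no block) in R 4.3.3, CGG-Cit minus CGG, and p-values were adjusted by Benjamini-Hochberg over all of them. The fit was also run on simulated counts, with the same dispersion for every gene and no shift shared by the genes of a library. That run does not show how the fit performs on the spread of these libraries. Tables were made with Python 3.11.15 and pandas 2.3.3. Of 157 symbols in 13 lists, members included, 153 matched the table by name; the other 4 were not analysed here. Members, lists and tests were chosen with earlier results of these data known. Named genes were the members, the 4 genes with the smallest p of each other platelet list and of the ligand list (2 in lists of other cells), Vwf, Pdpn, Itgb3, Gata1 and Tubb1, the nearest patterns, and the neighbours; other list genes were named after their values were seen. Some genes that the rule or the lists take in are counted but not reported here by name. Alternatives covered pseudocounts of 0.1 and 0.5, testing every gene or only those averaging 2 FPKM, median-of-ratios and TPM scaling, robust variance estimation, quantile and equal-total scaling (the last leaving 50 abundant genes out), a replicate block, voom on the recovered fragments, and dropping each library in turn.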

Additional observations from a re-analysis of the deposited data

How the results depend on the processing

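All 7 tested members kept a negative log2 fold change in all 17 alternative fits, with a median of -1.66 to -1.11 over them, and Pf4 passed in none. The 6 lower members became 3 without a filter on low values (Gp9, Ppbp and Clec1b, with Gp5 passing in addition), where 22222 genes were tested, and the 22 lower genes of the other platelet lists became 13. After rescaling to TPM 14 of those genes, 948 of all genes lower and 2203 higher were called. With each library left out in turn, the count of lower members ranged from 0 to 6, that of other lower platelet genes from 0 to 26, that of all lower genes from 190 to 1622 and that of all higher genes from 122 to 1312; fewer samples were fitted there. With the replicate number as a block 3 members (Gp9, Ppbp and Clec1b), 10 other platelet genes lower and 612 of all genes higher were called. The labels do not say that numbers pair libraries, and the deviations of same-numbered libraries from their group means correlated at -0.0956, 0.00165 and -0.0779 across genes, so the block has no ground in the design. These counts stayed within 1.5 times of the reported ones under both other pseudocounts, the stricter filter, robust variance estimation, median-of-ratios, quantile and equal-total scaling and voom. Voom used the library sizes implied by the deposited FPKM and so kept the authors' scaling. Median-of-ratios scaling moved the median log2 fold change of all genes only from 0.002 to 0.005. Neither therefore says much about how the counts depend on scaling. Of 43 named genes that passed, none changed direction in any alternative, but 38 lost the call when CGG 3 was dropped, 34 when CGG 2 or CGG-Cit 2 was, 28 for CGG-Cit 1 and 25 for CGG 1, as did 10 under the block and 9 with no filter; each remaining alternative lost 0 to 3. Gp5, with 1 fragment in CGG-Cit 1 and in CGG-Cit 2, is limited by depth.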

Other observations

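Of 10 tested genes next to the members on the table's coordinates 0 passed with limma (voom called 0, and unadjusted p was under 0.05 for 5). Of the other alternatives, TPM scaling called 3, quantile scaling 2, equal-total scaling 1 and the filter at 2 FPKM 1, and the rest 0. Ppp1r2, 4972 bases beyond Gp5, was at 46.4 to 53.6 FPKM in CGG and 48.0 to 51.5 in CGG-Cit (log2 fold change -0.02, adjusted p = 0.912 with limma). Gpatch8, 6371 bases from Itga2b, stood at -0.08 (adjusted p = 0.612), and Fam171a2, 4814 bases away on its other side, at 0.34 (0.0711). Slc25a11, the neighbour of Gp1ba at 2157 bases, a mitochondrial carrier gene, stood at -0.51 (0.0702), and Rab43, the neighbour of Gp9, at 0.47 (0.0538). Clec9a, a dendritic cell receptor gene 4020 bases from Clec1b, stood at 0.67 (0.0855). The members Pf4 and Ppbp, which are each other's neighbours, and the 5-Sep row that overlaps Gp1bb are not among these 10.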
